A study of Homo sapiens with 76 samples.

Results

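The 9 immediate early and growth response genes followed here across single HEK293 cells are FOS, JUN, JUNB, JUND, EGR1, IER2, IER3, ATF3 and MYC. They were chosen by name, with earlier results of these data known. All 9 of them had a row among the 17513 gene rows of the count table. HEK293 is an established human embryonic kidney line, and the 76 cells, all labelled HEK293, formed 1 group with no treatment, genotype or time point to compare. The cells had been kept in DMEM with glutamine and fetal calf serum, captured on a Fluidigm C1 chip and lysed with ERCC spike-in RNA. The 5' ends of their polyadenylated transcripts were sequenced, and molecules were told apart by random tags (UMIs), so that PCR copies count a single time. Neither the number of cultures nor the time between harvest and lysis is given in the sources used here, so cells were treated as observations of 1 sample and no p-value was computed.

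Immediate early genes are transcribed within minutes of a growth factor, serum or stress signal without needing new protein, and most of their messenger RNAs decay quickly. The FOS and JUN families encode basic leucine zipper proteins that pair to form the AP-1 transcription factor, EGR1 encodes a zinc finger factor, and ERK signalling reaches FOS and EGR1 through serum response factor at CArG boxes in their promoters. MYC encodes a growth-promoting transcription factor that is kept on in cycling cells and also rises early after mitogen stimulation.

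A cell held a median of 20966 endogenous UMIs (7305 to 43392), and 2198.5 spike-in UMIs (1390 to 3132). The highest Pearson correlation between the counts of 2 cells was 0.973 (raw counts). Of the marker lists, VIM was seen in 70 cells, KRT18 in 45, NEFM in 49 and UCHL1 in 70, while LHX1 was the only kidney gene of 6 seen (8 UMIs in 6 cells). Genes that these cells should lack set a background for detection. Of the blood genes HBA1 was seen in 5 cells (6.58%), of 3 liver genes APOA1 was seen in 1 cell, and none of the 3 endothelial genes was seen or analysed here. Intervals below cover counting error only.

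Members that rose and fell together across cells, described further below, are shown here with their promoters, since the reads mark 5' ends. RefSeq sequence (build GRCh38.p14) was matched by symbol to 7 members, with 8 starts because ATF3 has a pair. The 250 bases before the start are shown 5' to 3' on the gene's strand for EGR1 and the 3 members with an entry that had the highest rho to it over all 76 cells: FOS at chr14:75278578-75278827 (plus strand), EGR1 at chr5:138465229-138465478 (plus), JUN at chr1:58784048-58784297 (minus) and JUND at chr19:18281623-18281872 (minus). Capitals mark matches, on either strand, to the serum response motif called the CArG box, the cAMP response motif TGACGTCA, its variant TGACATCA and its core TGACG, the AP-1 motif TGANTCA, the TATA box TATAAA, the GC box GGGCGG, the EGR motif GCGNGGGCG and the E-box CACGTG, which MYC binds.
FOS: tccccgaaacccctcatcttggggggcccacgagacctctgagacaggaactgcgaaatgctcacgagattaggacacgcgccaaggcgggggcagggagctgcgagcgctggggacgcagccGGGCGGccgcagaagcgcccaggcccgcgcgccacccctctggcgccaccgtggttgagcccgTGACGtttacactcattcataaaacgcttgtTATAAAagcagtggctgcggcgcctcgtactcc
EGR1: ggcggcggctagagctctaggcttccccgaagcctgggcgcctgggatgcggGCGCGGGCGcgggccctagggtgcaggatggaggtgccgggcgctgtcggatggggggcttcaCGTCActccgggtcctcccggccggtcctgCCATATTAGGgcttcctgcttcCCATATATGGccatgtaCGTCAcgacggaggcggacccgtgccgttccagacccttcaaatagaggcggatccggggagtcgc
JUN: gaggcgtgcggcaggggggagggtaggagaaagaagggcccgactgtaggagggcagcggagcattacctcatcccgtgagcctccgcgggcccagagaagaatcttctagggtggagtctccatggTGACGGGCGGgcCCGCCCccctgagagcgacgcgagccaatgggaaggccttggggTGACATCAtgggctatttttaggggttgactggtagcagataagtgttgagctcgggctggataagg
JUND: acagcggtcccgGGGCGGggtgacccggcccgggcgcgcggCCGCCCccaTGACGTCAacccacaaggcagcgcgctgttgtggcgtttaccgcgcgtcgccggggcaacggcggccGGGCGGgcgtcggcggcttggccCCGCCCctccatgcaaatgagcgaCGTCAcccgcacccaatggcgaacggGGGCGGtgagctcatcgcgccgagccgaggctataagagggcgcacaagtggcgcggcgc
In these windows EGR1 held 2 CArG boxes, from 105 to 96 and from 83 to 74 bases before the start, where 1.16% of 35116 RefSeq promoter windows of the same length hold any. FOS, JUN and JUND held no CArG box in these 250 bases, and bases farther upstream were not searched. FOS held TATAAA from 33 to 28 bases before the start (10.7% of windows) and TGACG from 64 to 60 (21.2%). EGR1 also held TGACG from 135 to 131 and from 66 to 62, on the opposite strand. JUN held TGACATCA from 67 to 60 bases before the start (2.37%), and a TGACG that shares 1 base with a GGGCGG. JUND held TGACGTCA from 200 to 193 bases before the start (1.65%), which contains 2 of its TGACG matches, and 5 copies of GGGCGG, a motif present in 42.6% of windows. GCGNGGGCG was found in EGR1 itself (8.41%), and TGANTCA (6.57%) and CACGTG (6.34%) in none of the 4 windows. IER2, which had a rho of 0.310 with FOS, is not shown. A match is a run of letters and not a shown binding site.

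Over all cells the 9 genes gave 1420 UMIs, of which FOS, MYC, JUN and EGR1 held 79.8%. No cell type or treatment divides these values, so each gene is given by its lowest, median and highest cell. The counts mark 5' ends and were not divided by transcript length, so the order of UMIs between genes carries no length correction.

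**Figure D1:**
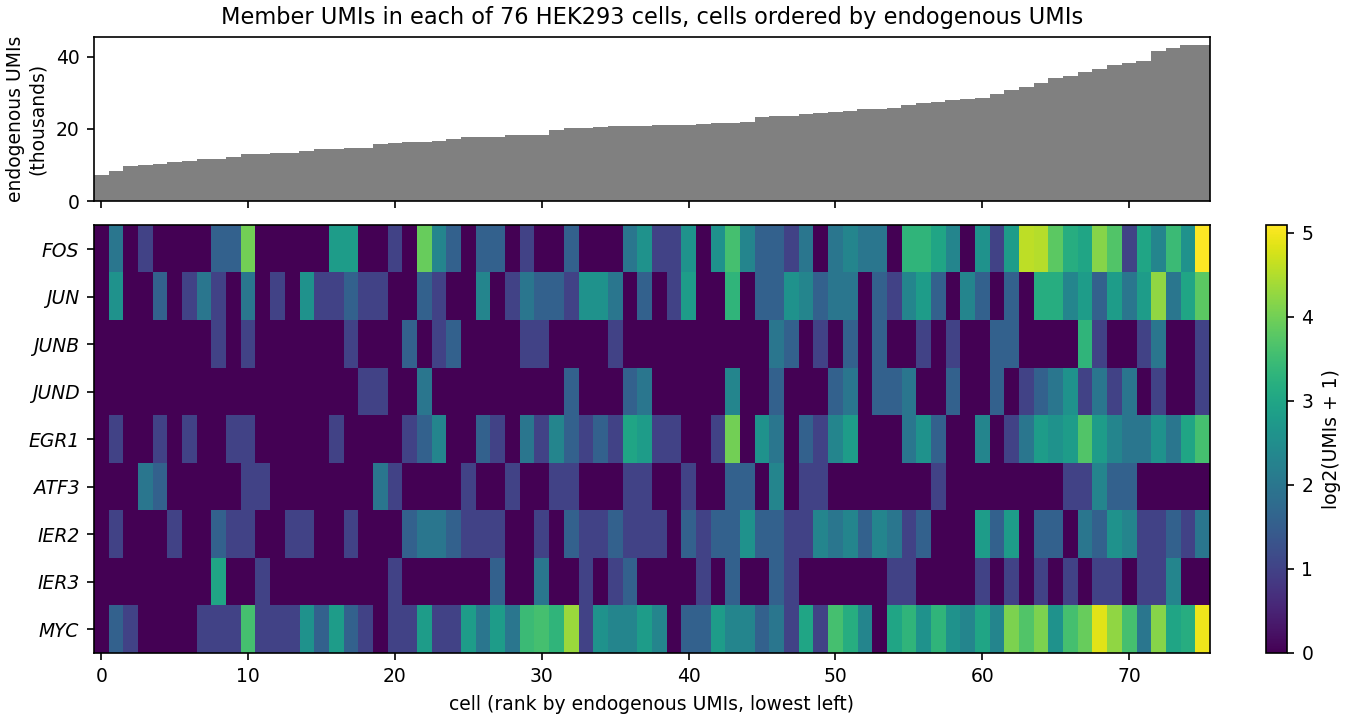
UMIs of the 9 members as log2(UMIs + 1) in each of the 76 HEK293 cells, ordered from 7305 to 43392 endogenous UMIs, which are drawn as grey bars. MYC is coloured in 68 of 76 cells and FOS in 51, while JUNB, JUND, IER3 and ATF3 are dark in most cells.

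MYC was the most abundant member and the most widely seen. It gave 0 UMIs in the lowest cell, 4 in the median cell and 30 in the highest (5.76 ± 6.11, SD, n = 76 cells). Counted per 10000 endogenous UMIs, its level was 2.31 ± 2.05, and the highest was 9.40 in cell 6. MYC was present in 68 of 76 cells (89.5%, exact Clopper-Pearson 95% interval 80.3% to 95.3%). If every cell had held MYC at the same share of its UMIs, Poisson counting would have given 74.8 cells with a UMI. MYC was missing from 8 cells. Its observed number was 90.9% of the expected one, close to the median of 91.8% over the 2810 genes compared for spread below. Of those genes, 1305 had a lower ratio, so this shortfall did not set MYC apart.

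FOS, the partner that gives AP-1 its stable DNA binding with JUN proteins, was more uneven. It gave 0 UMIs in the lowest cell, 2 in the median and 33 in the highest, cell 13 (4.24 ± 6.07). Per 10000 UMIs its mean level was 1.68 ± 2.24, with 11.6 in cell 48. FOS was seen in 51 cells (67.1%, 55.4% to 77.5%), against 73.03 expected at an equal share. The 25 cells without FOS included cells of up to 28386 endogenous UMIs. The 10 cells with most FOS held 52.8% of all FOS UMIs, beside 41.3% for MYC, 43.1% for JUN, 47.95% for EGR1 and 38.9% for IER2. The 4 sparse members had higher values, 69.05% for JUNB, 65.8% for IER3, 64.1% for ATF3 and 58.2% for JUND.

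**Figure D2:**
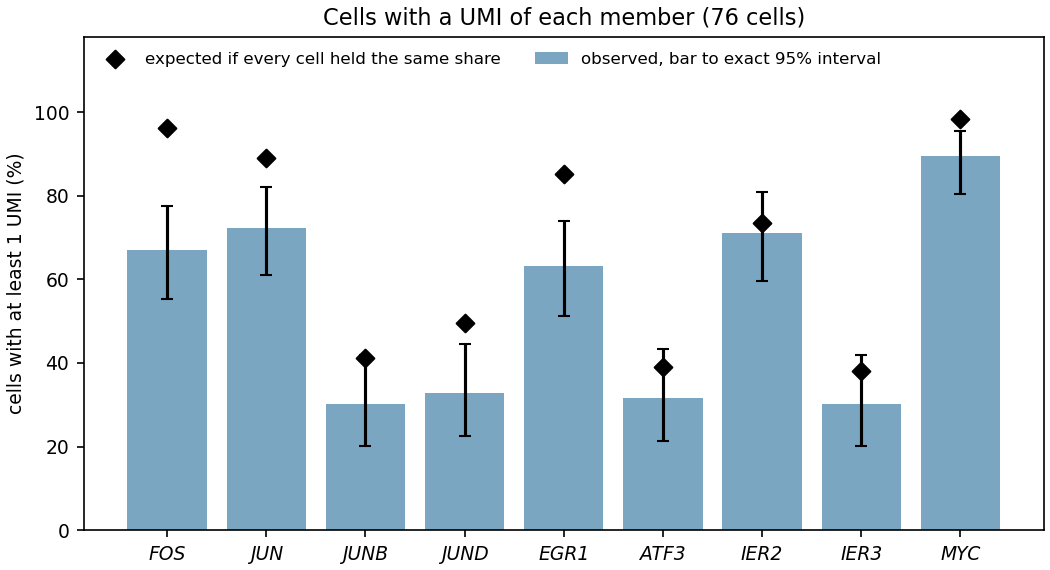
Percent of 76 cells with at least 1 UMI of each member (bars, with exact 95% intervals) and the percent expected from cell totals alone if every cell held the gene at the same share (diamonds). The intervals of MYC, FOS, JUN, EGR1 and JUND end below their diamonds, with FOS at 67.1% and EGR1 at 63.2%, while those of IER2, JUNB, IER3 and ATF3 hold theirs.

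The JUN genes encode the other side of AP-1. JUN gave 0, 2 and 18 UMIs in the lowest, median and highest cell (2.66 ± 3.14) and was seen in 55 cells (72.4%, 60.9% to 82.01%), against 67.7 expected. JUND had a median of 0 and a highest count of 5 (0.724 ± 1.196), and was seen in 25 cells (32.9%, 22.5% to 44.6%) against 37.6 expected. JUNB had a median of 0 and a highest count of 9, in cell 2, where no other cell held more than 3 (0.553 ± 1.25). It was seen in 23 cells (30.3%, 20.2% to 41.9%), against 31.2 expected, which lies inside the interval of the observed count. JUNB overlaps HOOK2 (11 UMIs) on the opposite strand in GENCODE 29, and the sources used here do not say whether the counting used strand.

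EGR1 gave 0, 1 and 15 UMIs in the lowest, median and highest cell (2.25 ± 2.98) and was seen in 48 cells (63.2%, 51.3% to 73.9%), against 64.8 expected. ATF3, a stress-responsive member of the same zipper class as JUN, had a highest count of 4 (0.513 ± 0.931) and was seen in 24 cells (31.6%, 21.4% to 43.3%), against 29.6 expected.

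IER2 and IER3 are both short immediate early response genes, and IER3 is known for effects on cell survival. IER2 gave 0, 1 and 6 UMIs (1.49 ± 1.47) and was seen in 54 cells (71.1%, 59.5% to 80.9%) against 55.9 expected, a count inside that interval. IER3 gave 38 UMIs in all, 7 of them in cell 54, a cell of 11711 endogenous UMIs (0.500 ± 1.077 per cell). It was seen in 23 cells (30.3%, 20.2% to 41.9%), against 29.002 expected. Both genes overlap antisense genes in GENCODE 29 that were not analysed here, and reads of either strand may be included.

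By summed UMIs the order was MYC (438, exact Poisson 95% interval 398 to 481), FOS (322, 288 to 359), JUN (202, 175 to 232), EGR1 (171, 146 to 199), IER2 (113, 93.1 to 136), JUND (55, 41.4 to 71.6), JUNB (42, 30.3 to 56.8), ATF3 (39, 27.7 to 53.3) and IER3 (38, 26.9 to 52.2). JUN and EGR1 had overlapping intervals, as did neighbours from JUND down to IER3. MYC, FOS and JUN were separated from each other beyond counting error, as were EGR1 and IER2, and IER2 and JUND. Between single cells the SD of each gene exceeded or came near its mean, so every neighbouring pair in this order overlapped over cells.

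FOS had the highest dispersion over cells among the members, and IER2 the lowest. Spread was measured as the Pearson dispersion, the squared deviation of each cell from the count its total predicts, divided by that prediction and averaged, for which counting noise alone gives 1. Spike-in RNA, added in equal amount, had a median of 1.53 on this measure, and its highest value, 2.196, was taken as the limit. Of the 9 members, 5 passed a minimum mean of 1 UMI per cell (MYC, FOS, JUN, EGR1 and IER2). Of those 5, 4 lay above the limit, where 21.6% of all 2810 genes with such a mean did. FOS reached 5.69, a value exceeded by 37 of the 2810 genes. MYC reached 3.58, EGR1 2.75 and JUN 2.31, and IER2 lay at 1.11, near counting noise. Among the genes below the minimum mean, IER3 had 3.32, JUNB 1.98, ATF3 1.963 and JUND 1.56.

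For EGR1, JUN and IER3 a single cell decided the place above the limit. Without the cell of its highest count, EGR1 fell to 0.865 of the limit (cell 85), JUN to 0.912 (cell 33) and IER3 to 0.566 (cell 54), which left FOS and MYC above it. JUN also lay below the limit without the 5 shallowest cells, at 0.960 of it. Dispersion grows with abundance, so an excess squared coefficient of variation, from which counting noise is subtracted, was set beside it. That excess was 1.15 for FOS, exceeded by 22 of 2810 genes, 0.747 for EGR1, 0.543 for JUN, 0.474 for MYC and 0.114 for IER2. Among the members below the minimum mean it was 2.49 for JUNB, 2.201 for IER3, 1.18 for ATF3 and 0.831 for JUND, so 3 of them lay above FOS. The median was 0.234 over all 2810 genes and 0.0575 over spike-ins. FOS was also seen in fewer cells than its total predicts, 69.8% of the expected number, and 15 of the 2810 genes had a lower ratio, where the median gene had 91.8%. Among the members JUND had a lower ratio, 66.4%.

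**Figure D3:**
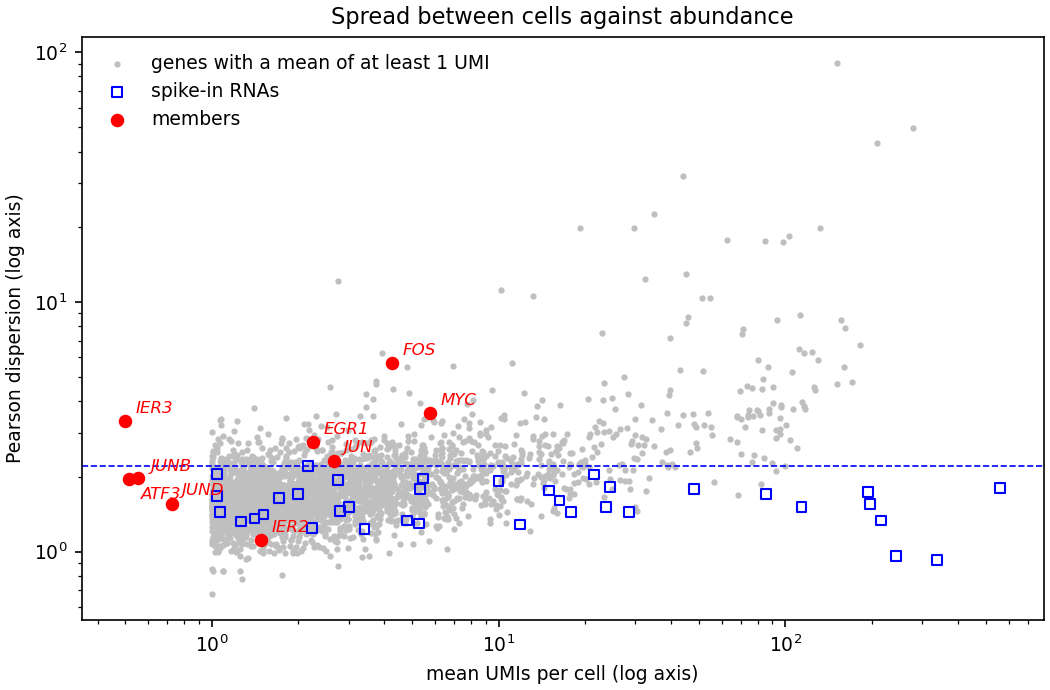
Pearson dispersion over 76 cells against mean UMIs per cell (both log axes) for the 2810 genes with a mean of at least 1 UMI (grey), spike-in RNAs (blue squares) and the 9 members (red). The dashed line is the highest spike-in dispersion, 2.196. FOS at 5.69 and MYC at 3.58 stand above it, and IER2 at 1.11 lies below.

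Single cells with a burst were then listed for each member. A burst was called where a cell held at least 3 UMIs of the gene and at least 3 times the count its total predicts. JUND had 6 such cells, FOS 5, JUN and ATF3 4 each, EGR1 and IER3 3 each, and JUNB, IER2 and MYC 2 each, while the median of the 2810 genes was 2 and 77.3% of them had at least 1. This order changed with depth and with the minimum. After thinning FOS had 6, EGR1 5, ATF3 1 and JUND 0, and with a minimum of 5 UMIs FOS had 5, EGR1 3, JUND 1 and ATF3 0. The FOS bursts were 33 UMIs in cell 13, 23 in cell 30, 22 in cell 26, 15 in cell 48 and 14 in cell 23, from 3.53 to 6.09 times the predicted count. These 5 cells held 33.2% of all FOS UMIs. The MYC bursts were 19 UMIs in cell 6 and 11 in cell 48, which together held 6.85% of MYC UMIs. The highest ratio of all was IER3 in cell 54, 26.6 times the predicted count. JUNB reached 10.1 times its prediction in cell 2.

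Bursts of several members fell in the same cell about as often as independent placement gives. In all, 25 cells had a burst of at least 1 member, 5 had bursts of 2 or more and 1 of 3, where independent placement of the same bursts would give 26.01, 4.49 and 0.462 cells. The 5 cells each combined different genes. Cell 85 held 15 UMIs of EGR1, 9 of JUN and 4 of JUND in a burst, beside 11 of FOS and 4 of MYC. Cell 2 held 9 UMIs of JUNB and 12 of EGR1 in a burst, beside 7 of FOS, 6 of JUN and 14 of MYC. Cell 48 held 15 of FOS and 11 of MYC in a burst, and 1 of EGR1. Cell 23 combined 14 of FOS with 3 of JUND, and held 2 of EGR1 and 6 of MYC. Cell 31 combined 3 of JUNB with 4 of ATF3, and was among the 2 cells in which all 9 members had a UMI. No pair of members shared more than 1 burst cell, where independent placement gave 0.0526 to 0.395 cells per pair. With so few bursts, more than 1 shared cell was unlikely for any pair. Among 158766 pairs of genes with at least 5 burst cells each, 63684 shared a burst cell. Of the members, FOS and JUND had that many burst cells, and they shared 1. At a ratio of 2 in place of 3 there were 15 cells with bursts of 2 or more members against 14.6 from independent placement, and at a ratio of 4 there were 3 against 1.42.

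**Figure D4:**
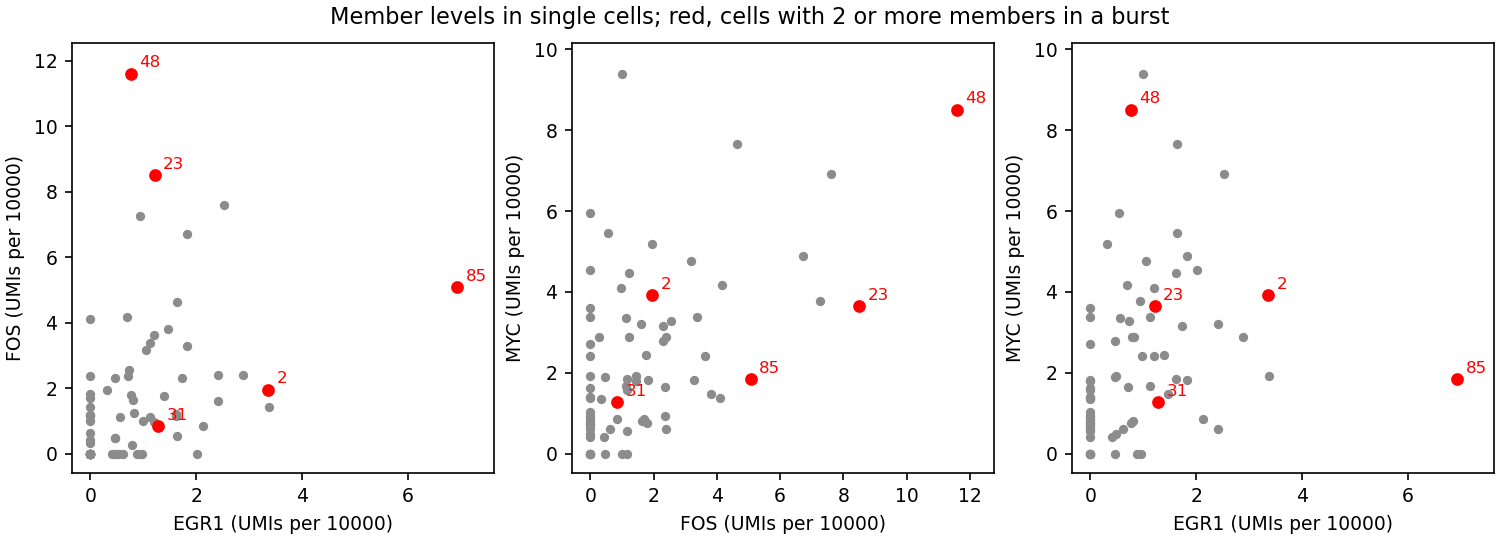
UMIs per 10000 endogenous UMIs in the 76 cells for FOS against EGR1, MYC against FOS and MYC against EGR1, with the 5 cells that had bursts of 2 or more members in red and numbered. Cell 48 is high in FOS and MYC and low in EGR1, and cell 85 is high in EGR1.

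Over all cells, FOS, EGR1 and MYC varied together. The Spearman rho of their shares over the 76 cells was 0.520 for FOS and EGR1, 0.501 for EGR1 and MYC and 0.459 for FOS and MYC. Both genes of the FOS and EGR1 pair were seen in 39 cells and neither in 16, where independent presence would give 32.2 and 9.21. Cells with a UMI of FOS, EGR1 and MYC numbered 38, and 3 cells had none of the 3. JUN went with EGR1 (0.448) and JUND with EGR1 (0.428), FOS (0.353) and MYC (0.334). JUNB went with IER2 (0.337) and FOS with IER2 (0.310). Of the 36 pairs of members, 9 had a rho of at least 0.3, where 1.16% of the 3946645 pairs of genes with a mean of at least 1 UMI did, and the median was 0.118 against 0.0144. Over the 10 pairs of the 5 members with such a mean, 5 reached 0.3 and the median was 0.294. IER3 and ATF3 stood apart, with every rho to another member between -0.120 and 0.202.

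These correlations share their cells and libraries, and the shares moved with depth. The share of the 8 immediate early genes summed rose with endogenous UMIs at a rho of 0.403, FOS at 0.409, MYC at 0.420, JUND at 0.427 and EGR1 at 0.396, while ATF3 had -0.0331. With each cell thinned to 10940 UMIs, which kept 71 cells, these rho to the full UMIs were 0.339 for the sum, 0.276 for FOS, 0.224 for MYC, 0.245 for JUND and 0.244 for EGR1. Among pairs, thinning left EGR1 and MYC at 0.399, FOS and MYC at 0.308, FOS and IER2 at 0.304 and FOS and EGR1 at 0.275, with JUND and EGR1 at 0.260 and JUN and EGR1 at 0.139. Then 3 of 36 pairs reached 0.3, all of them among the 10 pairs of the 5 members above, beside 1.03% of pairs of genes with a mean of at least 1 UMI after thinning. IER2, JUND, JUNB, IER3 and ATF3 had lower means than that after thinning (0.169 to 0.859 UMIs). With the rank of total UMIs regressed out instead, FOS and EGR1 had 0.427, JUN and EGR1 0.405, EGR1 and MYC 0.402 and FOS and MYC 0.347, and 6 of 36 pairs reached 0.3, beside 0.908% of all pairs. Thinning also leaves fewer UMIs per gene, and its part in the lower rho was not tested.

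**Figure D5:**
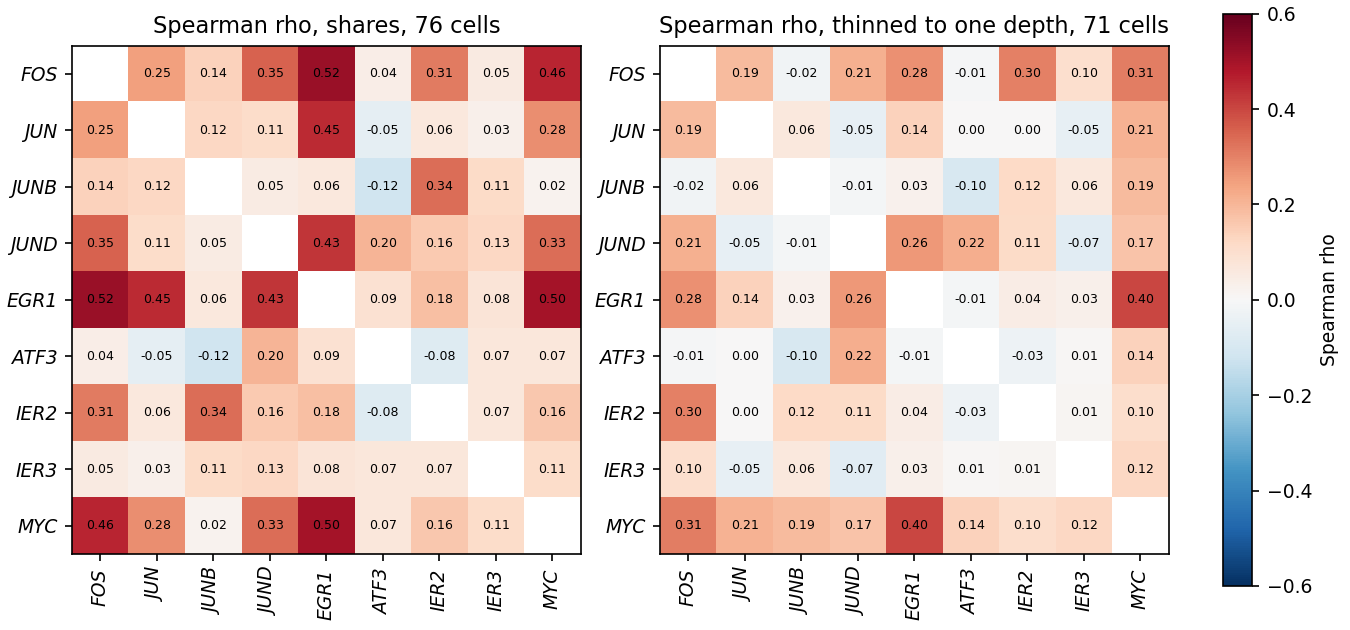
Spearman rho between members over cells, for shares in 76 cells (left) and for counts thinned to 10940 UMIs in 71 cells (right). The block of FOS, EGR1 and MYC holds values from 0.459 to 0.520 on the left and from 0.275 to 0.399 on the right, and the rows of ATF3 and IER3 hold no value above 0.216 in either panel.

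The state of each cell was read from summed shares of gene lists. The share of G2 and M phase genes had a rho of 0.414 with MYC and 0.356 with FOS over 76 cells, and 0.198 and 0.260 after thinning. The S phase share had 0.0272 with MYC, -0.00905 with FOS and 0.243 with ATF3 (0.304 after thinning). The mitochondrial share had 0.382 with FOS, 0.469 after thinning, and 0.329 with MYC, 0.174 after thinning. A heat shock share, from 13 chaperone and heat shock genes, had 0.0487 with FOS, 0.0642 with EGR1 and 0.289 with ATF3. The final number in a cell's title, whose meaning the labels do not give, had -0.359 with EGR1, -0.310 with MYC and -0.143 with FOS, and -0.302, -0.323 and -0.0552 after thinning. The part of depth, cell cycle and this number in the joint variation was not tested beyond these values.

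Outside the members, the genes closest to the summed immediate early share were CTB-36O1.7 (rho 0.508, 0.432 after thinning), the mitochondrial transfer RNA gene MT-TP (0.496 and 0.497), GADD45B, a stress-induced growth arrest gene (0.486 and 0.346), EIF4A3, a core protein of the exon junction complex (0.466 and 0.311), ATP6AP2 (0.461 and 0.190), CHURC1 (0.460 and 0.224), ARL6IP1 (0.444 and 0.413), the splicing factor gene RBM39 (0.440 and 0.385), the calmodulin gene CALM2 (0.440 and 0.420) and MT-CYB (0.432 and 0.391). In all, 115 of 2805 genes (4.1%) reached 0.3, and 40 reached -0.3 or lower. Closest to MYC were PRDX3, a mitochondrial peroxiredoxin (0.575 and 0.456), CTB-36O1.7 (0.562 and 0.364), CALM2 (0.544 and 0.405), ID2, an inhibitor of differentiation factors (0.534 and 0.299), and ARL6IP1 (0.525 and 0.383). Closest to FOS were ARL6IP1 (0.528 and 0.404), CTB-36O1.7 (0.492 and 0.484), CHURC1 (0.466 and 0.254), the splicing regulator PTBP1 (0.455 and 0.234) and ID2 (0.455 and 0.389). ARL6IP1 and CTB-36O1.7 were on all 3 lists.

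Other genes of the immediate early response were counted in the same way. Of 42 other immediate early and serum response genes, 38 were seen and 6 had a mean of at least 1 UMI, where 2810 of all 17513 gene rows did. Of those 6, 1 gene, DUSP1, which encodes a phosphatase of MAP kinases, lay above the dispersion limit (2.25), beside 21.6% of all genes tested. The most abundant were CCNL1 (2.38 ± 2.51 UMIs), SRF, the serum response factor itself (1.89 ± 2.06), BTG1 (1.75 ± 2.16) and DUSP1 (1.42 ± 1.89). GADD45B (0.486) and DUSP1 (0.303) were the 2 of the 6 with a rho of at least 0.3 to the summed share. After thinning GADD45B (0.346) was the 1 of the 6 left, beside 2.48% of the 1572 genes with a mean of at least 1 UMI after thinning, a minimum that was not applied again to the 6. SRF had 0.0464. Of 16 genes for AP-1 partners 15 were seen, led by ATF4 (7.72 ± 5.12, 74 cells) and FOSB (47 UMIs in 24 cells, rho 0.375 to the summed share and 0.243 after thinning), and 0 were above the limit, with ATF4 alone passing the minimum mean. All 24 genes of the ERK pathway were seen, led by MAP2K2, a kinase upstream of ERK (80 UMIs in 45 cells), with NRAS at 57 UMIs and HRAS at 44, and none of them but MAP2K2 passed the minimum mean.

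For MYC, genes of its partners and targets were set beside it. Of 18 genes of the MYC network 16 were seen, and 0 of the 4 with a mean of at least 1 UMI reached a rho of 0.3 to MYC, beside 4.63% of all genes. RUVBL1 had -0.124, RUVBL2 -0.0369, MYCBP 0.207 and MLX 0.0153, and RUVBL2 (2.31) was the one above the dispersion limit. MAX, the obligate dimer partner, gave 55 UMIs in 32 cells and is named for its role after its values were seen. Of 25 genes known as MYC targets 24 were seen and 21 passed the minimum mean. Of these 21, 3 reached 0.3: EIF4E, the cap-binding translation factor (0.453, 0.355 after thinning), NOP56, a nucleolar protein gene named outside the naming rule (0.370 and 0.345), and HSPE1 (0.322 and 0.151). The abundant targets NPM1 (-0.0156), PTMA (0.123) and HSPD1 (-0.0466) did not, and 9 of the 21 lay above the dispersion limit. Among 20 G2 and M phase genes with such a mean, 7 reached 0.3 to MYC, including UBE2C (0.435), CDK1 (0.398), CKS2 (0.354) and KPNA2 (0.332). After thinning 2 of the 20 did, beside 2.1% of those 1572 genes, with UBE2C at 0.367. Of 27 S phase genes with such a mean 0 reached 0.3 to MYC and 2 to the summed share. Of 10 heat shock genes 1 reached 0.3 to MYC (HSPE1, the same gene as among the MYC targets) and 1 to the summed share (HSPA8). HSPE1 and HSPD1 are on both the heat shock and the MYC target lists. After thinning 0 heat shock genes reached 0.3 to either, and 1 S phase gene did to the summed share. Above the dispersion limit lay 13 of the 20 G2 and M phase genes, 10 of the 27 S phase genes and 8 of the 10 heat shock genes, beside 21.6% of all genes. Dispersion grows with abundance, and the share of all genes was 39.1% at a minimum mean of 3 UMIs. Heat shock genes reached a mean of 28.2 UMIs (HSPD1). No gene set of matched abundance was compared with these lists or the MYC targets.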

How the data were processed

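Single cells of HEK293 (76 samples, 1 group) were measured by 5' selective, oligo-dT primed RNA sequencing with UMIs, amplified by 18 cycles of PCR, per the labels' protocols. The authors deposited a table of raw UMI counts, 1 row per gene and 1 column per cell, with no normalization. Build hg19 (GRCh37) and the tools STAR 2.4.0a and cutadapt 1.2.1 are named, without a role, per the submitters' processing notes. How UMIs were counted, on which annotation and strand, and how cells were filtered is not given in the sources used here. Near-identical copies of a gene could share reads.

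A row called GENE, which repeats the column numbers, was left out, as 80 spike-in rows were from gene totals. All 76 columns were matched by run name and final number (0 unmatched). Shares are UMIs over a cell's endogenous UMIs. Thinning drew 10940 UMIs per cell without replacement in a single seeded draw, leaving out 5 cells with less than 10483 UMIs (the median divided by 2). For pairs, the minimum for members was 0.5 UMI per cell on average, which all 9 reached. Expected counts of cells are Poisson or products of observed frequencies. No test was made, as there is 1 sample. Scripts used Python 3.11.15, numpy 2.4.6, pandas 2.3.3 and scipy 1.17.1 and were tested on simulated data. Promoters come from RefSeq (GRCh38.p14), whose coordinates were not joined to the counts. Members and lists were chosen with earlier results of these data known. Named genes are the members, the 10 genes closest to the summed share, the 5 closest to MYC and to FOS, and the most abundant or most dispersed genes of each list. Results for some list genes are not reported here. Alternatives changed scale, depth, cells, minimum means and burst rules.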

Additional observations from a re-analysis of the deposited data

How the results depend on the processing

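Of 55 recomputed summary values, 38 stayed close to the reported value and 17 moved. Close was a broad rule. It meant inside a 95% interval for a percent of cells or a rho, within 1 SD over cells for a share, and within a fixed ratio for a count. Under it the median rho of member pairs, 0.118 and 0.0815 after thinning, counted as close. So did 606 genes above the limit and 428 at a minimum mean of 3 UMIs. The 38 values are therefore no measure of stability. With cells thinned to 10940 UMIs the median member was seen in 47.9% of cells (63.2% unthinned). Spike-in counts were not thinned, so genes at lower counts were held against a limit from spike-ins at full depth. The number of genes above that limit is therefore not like for like. After thinning 135 of 1576 genes lay above the limit (606 of 2810), 39 genes reached a rho of 0.3 to the summed share (115) and 33 to MYC (130). Scaled by spike-in UMIs, under which RNA content enters every gene, these 3 counts were 1314, 1164 and 946, cells with joint bursts were 9 (7.32 expected if independent), and the summed level rose with endogenous UMIs at 0.624 (0.403). At 2 UMIs the median member was seen in 40.8% of cells. With the median spike-in dispersion as limit 1997 genes and 4 members passed. At a minimum mean of 3 UMIs 2 members were tested, FOS and MYC, and both passed, beside 39.1% of genes. A burst at 2 times the expected count gave a median of 8 burst cells per member (3) and 15 joint cells (5), and at 4 times 3 joint cells. With a minimum of 2 UMIs the median was 5 and joint cells 9 (8.29 expected), and with a minimum of 5 joint cells were 3 (1.76 expected). The causes were not tested. The regression on total UMIs and the removal of cell 85, which gave 5 joint cells (4.04 expected) with expected counts recomputed, were chosen after seeing the data. No paired analysis was possible because there is 1 group. JUND, JUNB, ATF3 and IER3 rest on 38 to 55 UMIs over 76 cells, and their correlations on few cells with a UMI.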

Other observations

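VIM, the intermediate filament gene of mesenchymal cells, had a rho of -0.353 to the summed immediate early share (-0.273 after thinning) and of -0.335 to MYC (-0.250). The other mesenchymal markers seen did not share this sign throughout. COL1A1, at 12 UMIs, had 0.0737 to the sum and 0.350 to MYC, and ACTA2, at 2 UMIs, had 0.0115 to the sum and -0.00520 to MYC.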
